A study of Homo sapiens with 2 samples.

Results

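The genes described here are 10 that encode enzymes and core subunits acting on methylation of lysine 4 of histone H3 (H3K4), taken by name from 19970 protein-coding genes on chromosomes 1 to 22 and X. They are the methyltransferases KMT2A, KMT2B, KMT2C, KMT2D, SETD1A and SETD1B, the subunits ASH2L and WDR5, and the demethylases KDM5A and KDM5B. All 10 had a position in the RefSeq gene table of GRCh38.p14. The chromatin bound by an anti-TCF19 antibody was sequenced (ChIP-seq) from Ishikawa cells, a cell line derived from human endometrial cancer. One population was infected with a control lentivirus (genotype label: negative control) and the other with a lentivirus that overexpressed TCF19 (genotype label: TCF19 over-expression). Both were selected with puromycin, and the labels do not name the promoter of the transgene or say whether the cells were 1 clone. Each group had 1 library and 1 list of called peaks, so the conditions could not be tested against each other and every interval covers counting error only. Peak lists hold no expression, so the cell type was not checked against marker genes.

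Trimethylated H3K4 (H3K4me3) marks the starts of active genes, and monomethylated H3K4 marks enhancers. The mark is written by complexes in which 1 of the 6 methyltransferases sits on a shared core that includes ASH2L and WDR5, and it is removed by demethylases such as KDM5A and KDM5B. TCF19 carries a PHD finger, a small domain that binds the H3 tail with methylated K4, so these genes encode the machinery that sets the mark TCF19 reads.

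A summit is the position of highest coverage that the peak caller reported within an interval, and its pileup is the number of fragments (in reads) covering it, recovered here from the deposited statistics. On these chromosomes there were 169542 summits in control and 111569 with overexpression. The genome average was 1.58 reads of pileup in control and 1.43 with overexpression, 0.903 of the control depth; total read numbers were not used here. At a local background equal to that average the lowest called pileup was 6 reads in both libraries, and at 6 times the average it was 19 in control and 18 with overexpression.

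The sequences at the starts of 5 members are printed because these starts had the highest pileups with overexpression (KMT2D, KMT2A, KDM5A) or a summit with overexpression alone (SETD1A, KMT2C). Each runs from 250 bases before the RefSeq start to 30 bases after it, 5′ to 3′ on the strand of the gene, from the RefSeq promoter table of GRCh38.p14. The positions are chr12:49060765-49061044 on the minus strand for KMT2D, chr11:118436242-118436521 on the plus strand for KMT2A, chr12:389291-389570 on the minus strand for KDM5A, chr16:30957504-30957783 on the plus strand for SETD1A and chr7:152435974-152436253 on the minus strand for KMT2C. Capitals mark every match, on either strand, to 1 of 7 searched words, with overlapping matches run together. The words were the GC box GGGCGG, the E-box CACGTG, the ETS word CCGGAAG, the CCAAT box, the YY1 word AAGATGG, the NRF1 word GCGCATG and the E2F word TTGGCGC.
KMT2D: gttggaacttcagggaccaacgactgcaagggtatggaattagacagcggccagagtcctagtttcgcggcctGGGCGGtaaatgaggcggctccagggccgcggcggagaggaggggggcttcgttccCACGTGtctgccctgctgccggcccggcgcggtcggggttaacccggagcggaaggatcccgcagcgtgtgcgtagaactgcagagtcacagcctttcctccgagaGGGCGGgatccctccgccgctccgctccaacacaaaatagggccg
KMT2A: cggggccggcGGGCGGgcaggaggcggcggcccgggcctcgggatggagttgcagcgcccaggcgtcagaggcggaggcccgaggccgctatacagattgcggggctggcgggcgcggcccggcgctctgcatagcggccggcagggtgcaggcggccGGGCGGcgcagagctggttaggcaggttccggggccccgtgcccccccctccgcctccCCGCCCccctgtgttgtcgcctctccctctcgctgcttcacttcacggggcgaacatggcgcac
KDM5A: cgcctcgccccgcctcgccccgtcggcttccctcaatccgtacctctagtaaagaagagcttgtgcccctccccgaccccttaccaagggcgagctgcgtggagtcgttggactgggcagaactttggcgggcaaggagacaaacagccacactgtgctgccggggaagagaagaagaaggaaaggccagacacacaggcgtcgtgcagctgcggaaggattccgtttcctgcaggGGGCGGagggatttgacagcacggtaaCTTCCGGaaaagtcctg
SETD1A: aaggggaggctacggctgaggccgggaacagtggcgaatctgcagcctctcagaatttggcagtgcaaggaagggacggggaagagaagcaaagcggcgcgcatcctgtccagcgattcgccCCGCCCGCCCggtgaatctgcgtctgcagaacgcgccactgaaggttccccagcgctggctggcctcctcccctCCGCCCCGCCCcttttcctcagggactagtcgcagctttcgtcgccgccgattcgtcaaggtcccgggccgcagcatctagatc
KMT2C: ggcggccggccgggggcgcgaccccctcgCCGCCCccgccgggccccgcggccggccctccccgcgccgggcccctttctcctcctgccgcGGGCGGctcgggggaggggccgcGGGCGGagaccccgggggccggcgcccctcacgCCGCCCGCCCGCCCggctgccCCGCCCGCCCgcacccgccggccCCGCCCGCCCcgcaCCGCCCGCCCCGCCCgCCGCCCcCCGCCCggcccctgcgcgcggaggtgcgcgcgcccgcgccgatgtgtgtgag
The GC box was in all 5, with 15 matches at KMT2C, 4 at SETD1A, 3 at KMT2A, 2 at KMT2D and 1 at KDM5A. It was in 55.3% of the 22155 promoters of protein-coding genes in the table over the same window. The E-box word stood in KMT2D (8.04% of all promoters) and the ETS word in KDM5A (12.5%). The CCAAT box (34.0% of all promoters), the YY1 word (5.30%), the NRF1 word (5.09%) and the E2F word (3.63%) were in none of the 5 windows. A match is a description of these letters and not a binding site.

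Near the gene start, defined as within 1000 bp, 5 of the 10 genes had a summit in control and 7 with overexpression. Over all protein-coding genes the shares were 53.5% in control and 64.9% with overexpression, so the counts lie near the background. KMT2A, KMT2D, ASH2L, KDM5A and KDM5B had one in both libraries. KMT2C and SETD1A had one with overexpression alone, 2 of 10 against 16.1% of all genes. KMT2B, SETD1B and WDR5 had none in either library, against 30.4% of all genes. No member had one in control alone, against 4.75%. The promoter table held no start for ASH2L and SETD1B, so either end of these genes was used. Among the 8 members with a start in the table the counts were 4 in control and 6 with overexpression, against 54.4% and 66.4% of genes with a start. Within 2000 bp the members were the same 5 and 7, against 60.5% and 70.1% of all genes. Restricted to summits of at least 4-fold enrichment, the members were KDM5A in control (23% of all genes) and KMT2A, KMT2D and KDM5A with overexpression (40.5%). With equally many top-fold summits taken from both lists, which cut the control list alone, they were 1 in control (34.2% of all genes) and 7 with overexpression (64.9%).

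Of the methyltransferase genes, KMT2D had the highest start pileup. KMT2D encodes an enzyme known for monomethylation of H3K4 at enhancers. Its highest start summit had 23 reads (exact Poisson interval 14.6 to 34.5) in control and 51 (38.0 to 67.1) with overexpression. These summits lay 136 and 16 bp inside the start, at 49060658 and 49060778 on chromosome 12. The counting intervals did not overlap. Taken over the genome average, the overexpression pileup was 2.46 times the control pileup, a log2 ratio of 1.3 (counting interval 0.56 to 2.07). Among genes with a start summit, 99.9% had a lower pileup than KMT2D with overexpression and 96.1% in control. With overexpression the start lay in a single interval from 49059557 to 49061071. Control had 2 intervals there, from 49059530 to 49060286 and from 49060465 to 49061076.

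KMT2A (also called MLL1), an enzyme that maintains HOX gene expression, had 15 reads (8.4 to 24.7) at its start in control and 29 (19.4 to 41.6) with overexpression. The summits stood just before the start, at 118436341 and 118436373 on chromosome 11, 32 bp apart. The log2 ratio was 1.10 (0.15 to 2.1), although the intervals of the 2 pileups overlapped. A further summit of 18 reads in the same overexpression interval stood at 118436057.

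SETD1A and KMT2C had start summits that were called with overexpression alone. SETD1A, which encodes a main enzyme of H3K4 trimethylation, had 21 reads (13 to 32.1) at 30958012 on chromosome 16, 258 bp inside the gene. At equal occupancy 23.3 reads would be reached in control, where the lowest called pileup at that relative background was 15. KMT2C, the close relative of KMT2D, had 13 reads (6.92 to 22.2) at 152435217 on chromosome 7, 786 bp inside the gene and outside the sequence printed for it. There the equal-occupancy pileup was 14.4 reads and the lowest called control pileup 10. The control background at these places is not in the lists, so these limits assume the same relative background. Of all intervals seen with overexpression alone, 33083 of 33084 reached such a limit, so it does not single out these genes. Parts of KMT2C have near-identical copies elsewhere in the genome, so its peaks are uncertain in place.

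KMT2B and SETD1B had no start summit. KMT2B, the paralogue of KMT2A, had no control summit in the gene or 5 kb either side. With overexpression it had 24 reads (15.4 to 35.7) at 35732292 on chromosome 19, 14289 bp inside the gene, and 16 reads (9.15 to 26.0) at 35740548, beyond the gene and inside IGFLR1. SETD1B, the paralogue of SETD1A, had 2 control summits, both in the gene body on chromosome 12, with 19 reads at 121817236 and 24 at 121827782. Of its 4 overexpression summits, that at 121792903 (18 reads) stood 2748 bp inside the lower end, where SETD1B overlaps RHOF, and that at 121830459 (18 reads) lay near the upper end.

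Of the 2 core subunit genes, ASH2L had a summit near its lower end in both libraries and WDR5 had none near a start. ASH2L, which stabilises the active methyltransferase complex, had 15 reads (8.4 to 24.7) in control at 38104958 on chromosome 8. With overexpression it had 17 reads (9.9 to 27.2) at each of 2 summits, at 38105084 and 38105614. The log2 ratio was 0.33 (-0.76 to 1.43), so no difference was detectable at this depth. WDR5, a WD-repeat protein that holds the core together, had no control summit in the gene or its flanks, although the table gives it 4 starts. Its overexpression summits were far from them, with 27 reads (17.8 to 39.3) at 134157152 on chromosome 9, inside the gene, and 25 reads (16.2 to 36.9) at 134163377, beyond its end.

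Both demethylase genes had start summits in both libraries. KDM5A, which removes methyl groups from di- and trimethylated H3K4, had 12 reads (6.2 to 21.0) in control and 29 (19.4 to 41.6) with overexpression. The summits stood 157 and 202 bp inside the gene, at 389163 and 389118 on chromosome 12. The log2 ratio was 1.42 (0.41 to 2.53), the highest of the 5 members with both values. The neighbouring gene CCDC77 starts 27 bp from the KDM5A start, so the summits cannot be assigned to 1 of these genes. A further overexpression summit of 19 reads, at 389511, lay inside CCDC77. KDM5B, the paralogue of KDM5A, had 15 reads (8.4 to 24.7) in control and 20 (12.2 to 30.9) with overexpression. These summits stood 258 and 59 bp inside the gene, at 202808163 and 202808362 on chromosome 1. The log2 ratio was 0.56 (-0.48 to 1.63), and no difference was detectable at this depth. Before the KDM5B start there was also a summit in each library, in peak intervals that did not overlap. The control summit, at 202811113, lay inside the noncoding RNA gene PCAT6. The overexpression summit, at 202810803, lay within 1000 bp of the PCAT6 start at 202810954. Both were also inside the gene LOC124904583, so they cannot be assigned to KDM5B. The control summit had 12 reads (6.2 to 21.0) and the overexpression summit 22 (13.8 to 33.3), and these counting intervals overlapped.

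**Figure D1:**
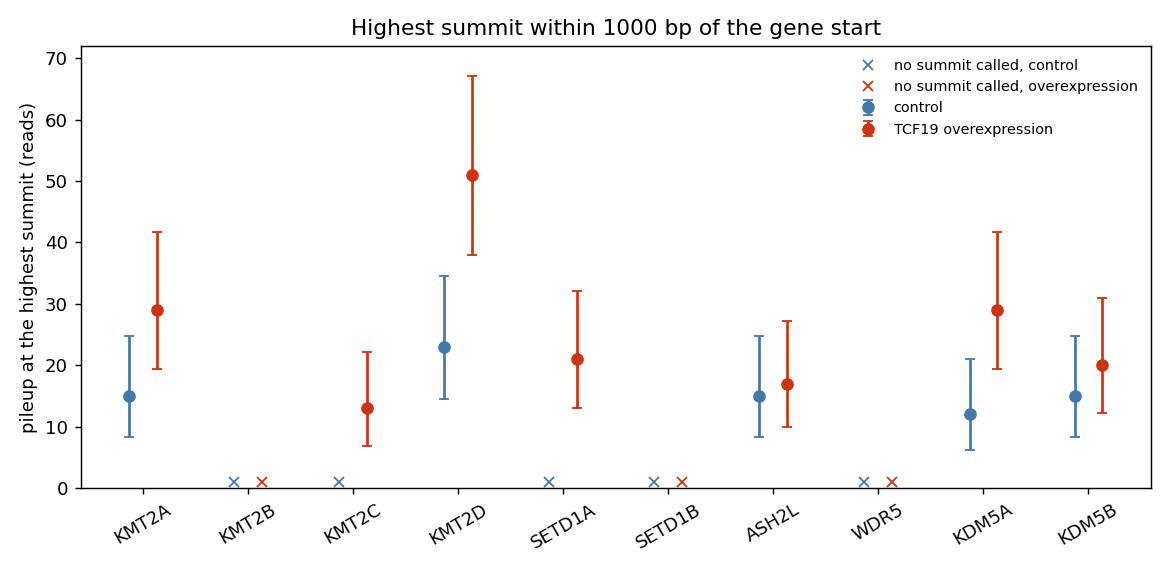
Pileup in reads (y axis, from 0) at the highest summit within 1000 bp of the start of each of the 10 genes (x axis), in control (blue) and with TCF19 overexpression (red). Bars are exact 95% Poisson intervals and crosses at the foot mark libraries with no called summit. The KMT2D pileups of 23 and 51 reads are the pair whose intervals do not overlap.

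Over the 5 members with a start summit in both libraries, the overexpression pileup was the higher in 5, each over its genome average, as it was in 82.4% of the 9737 such protein-coding genes. The median log2 ratio was 1.10 over the members and 0.41 over all those genes. The quartiles of all genes were 0.15 and 0.69. KDM5A lay above 98.9% of all genes, KMT2D above 97.8% and KMT2A above 94.8%, while KDM5B lay above 63.2% and ASH2L above 43.0%. By these point values 3 members lay in the upper tail of all genes and 2 in its middle. The counting intervals of all 5 overlapped, so the members are not shown to differ from each other. The interval of KMT2D (0.56 to 2.07) lay above the median of all genes. Those of KMT2A (0.15 to 2.1) and, narrowly, KDM5A (0.406 to 2.53) included that median of 0.410. The local background at the summit, over the genome average, was also higher with overexpression at KDM5A (log2 ratio 0.78), KDM5B (0.47), KMT2A (0.36) and KMT2D (0.29), and lower at ASH2L (-0.11). That background may include the reads of the peak itself, and its part in the ratios was not tested. With the deposited fold over the local background in place of the pileup, the log2 ratios were 0.99 at KMT2D, 0.74 at KDM5A, 0.73 at KMT2A, 0.38 at ASH2L and 0.12 at KDM5B. Fold ratios over all genes are not given here, so the place of these values among all genes is not known.

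**Figure D2:**
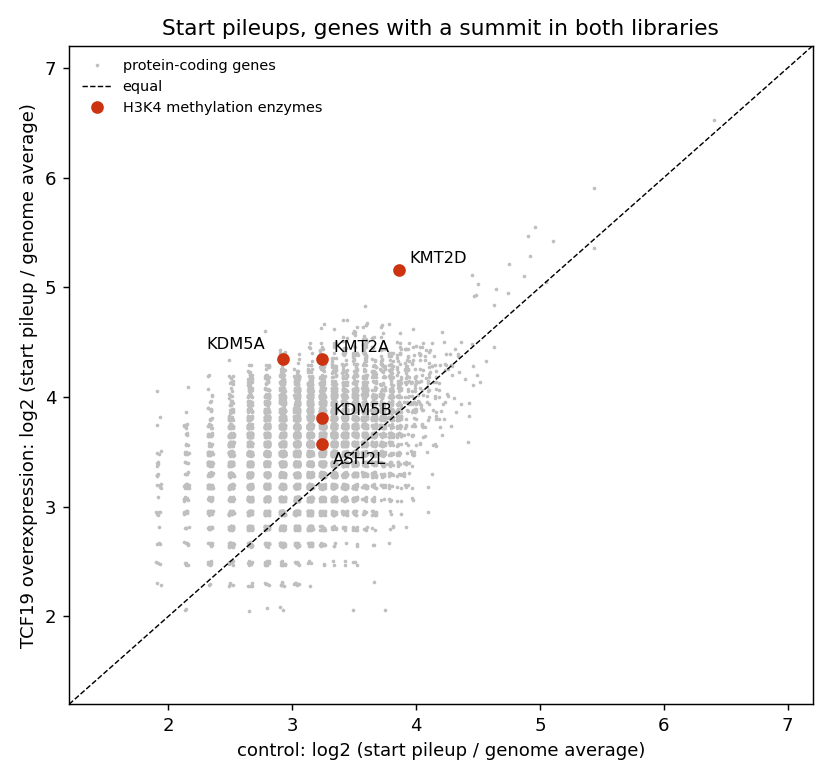
Each grey point is 1 of 9737 protein-coding genes with a start summit in both libraries, placed by the log2 of its start pileup over the genome average in control (x axis) and with TCF19 overexpression (y axis), with a small random shift against overplotting; red points are the 5 H3K4 methylation enzyme genes with both values. All 5 lie above the dashed line of equality, KMT2D, KDM5A and KMT2A the farthest.

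Away from the start, the shared summits of the same genes did not differ beyond counting error, and few such pairs did over all protein-coding genes. In the gene bodies 16 pairs of overlapping intervals could be set side by side, and the overexpression pileup over the genome average was the higher in 6, against 54.9% of 26423 such pairs in all protein-coding genes. The median log2 ratio was -0.02 in members and 0.05 in all genes, and in 0 of the 16 pairs did the counting interval exclude 0, against 0.844% of all pairs. Near starts the overexpression pileup was the higher in 5 of 5 pairs, against 80.4% of 9691 pairs, and the interval excluded 0 in 3, against 5.5% of all pairs in either direction.

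KMT2D shows the contrast within 1 gene. At 39.2 kb from the start its control pileup was 36 reads (25.2 to 49.8), above that at the start, and the overexpression pileup was 25 (16.2 to 36.9). At 33.9 kb the values were 24 in control and 27 with overexpression, and at 27.5 kb they were 29 and 22. With overexpression the start thus stood well above the other KMT2D summits, whereas in control it did not. In KDM5A the pairs at 62.5, 24.6 and 13 kb had 15, 14 and 18 reads in control and 17, 14 and 15 with overexpression. In KMT2A the pairs at 56, 71.3 and 78.5 kb had 15, 11 and 8 reads in control and 12, 9 and 10 with overexpression. The KMT2C pair of highest pileup, at 69.3 kb, had 21 reads (13 to 32.1) in control and 17 (9.9 to 27.2) with overexpression. KDM5B had 1 body pair, at 68.2 kb, with 19 and 17 reads.

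**Figure D3:**
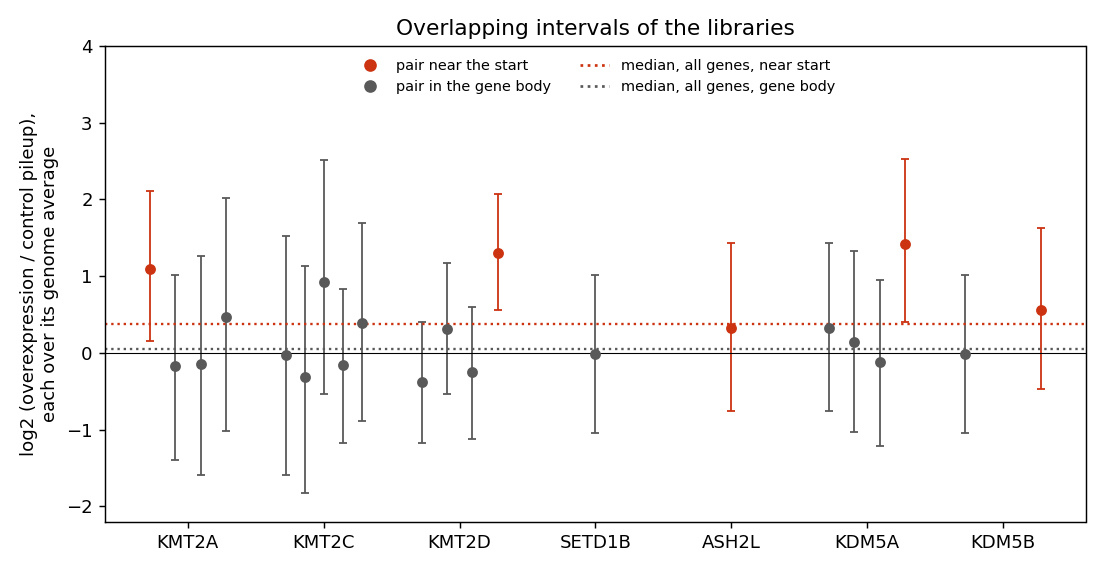
Log2 ratio of overexpression to control pileup, each over its genome average (y axis), for each pair of overlapping intervals in the 7 genes that had one (x axis), near the gene start (red) or in the gene body (grey); bars are 95% counting intervals and dotted lines are the medians over all protein-coding genes. The start pairs of KMT2A, KMT2D and KDM5A lie above 0 with their whole interval, and no body pair does.

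Counted over whole gene spans and 5 kb either side, the 10 genes held 65 summits in control and 52 with overexpression. That was 7.42 and 5.94 per 100 kb, against 6.91 and 5.15 over all protein-coding genes. The direction depended on the cutoffs. With summits of at least 4-fold enrichment in both lists, the members held 26 in control and 19 with overexpression, the same direction. With equally many top-fold summits from both lists, the members held 28 in control and 52 with overexpression, and all protein-coding genes 63558 and 76838. This setting kept control summits of 3.49-fold or more and every overexpression summit, from 1.59-fold, so only control counts could fall. Of the control summits 7 were near a start, 53 in gene bodies and 5 in the flanks, and of the overexpression summits 10, 36 and 6. All 10 genes held at least 1 summit with overexpression (87.2% of all genes) and 8 in control (85.4%). Pileups ran from 6 to 36 reads in control (median 13) and from 7 to 51 with overexpression (median 17).

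Over the full lists, the direction of the difference in number divided the members. The overexpression library had fewer summits at KMT2C (10 against 19 in control), KDM5A (5 against 12), KDM5B (4 against 8), KMT2D (7 against 11) and ASH2L (3 against 5). It had more at SETD1A (5 against 1), KMT2A (10 against 7), SETD1B (4 against 2), KMT2B (2 against 0) and WDR5 (2 against 0). Of all protein-coding genes 48.8% had fewer and 26.6% more. With equally many top-fold summits from both lists, a setting that removed control summits only, the direction turned at KMT2C (10 against 9), KDM5B (4 against 3), KMT2D (7 against 1) and ASH2L (3 against 1). KDM5A (5 against 10) alone then had fewer with overexpression, against 27% of all genes, and the other 9 had more, against 49.8%. At 4-fold or more in both lists none of these turned. The counts there were 4 against 9 at KMT2C, 1 against 2 at KDM5B, and 1 against 1 at both KMT2D and ASH2L. They were 5 against 10 at KDM5A and 7 against 3 at KMT2A. SETD1A, SETD1B, KMT2B and WDR5 had 0 summits of that fold in either library, so their excess with overexpression was not seen at this cutoff. Over the full lists gene length went with the direction: in the 4 members of at least 80 kb (KMT2A, KMT2C, KDM5A and KDM5B) the overexpression library had 29 summits against 46, and in the 6 shorter ones 23 against 19. Of the long members KMT2A had more (11.4% of all genes of that length) and 3 had fewer (83.4%), and of the short ones 4 had more (30.6%) and 2 fewer (39.6%). The ratio was 0.63 in the long members and 0.627 in all long protein-coding genes, and 1.21 in the short members against 0.914 in all short genes. Most members had few summits, so 1 or 2 calls move these numbers. The limit of 80 kb was chosen after the values were seen.

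**Figure D4:**
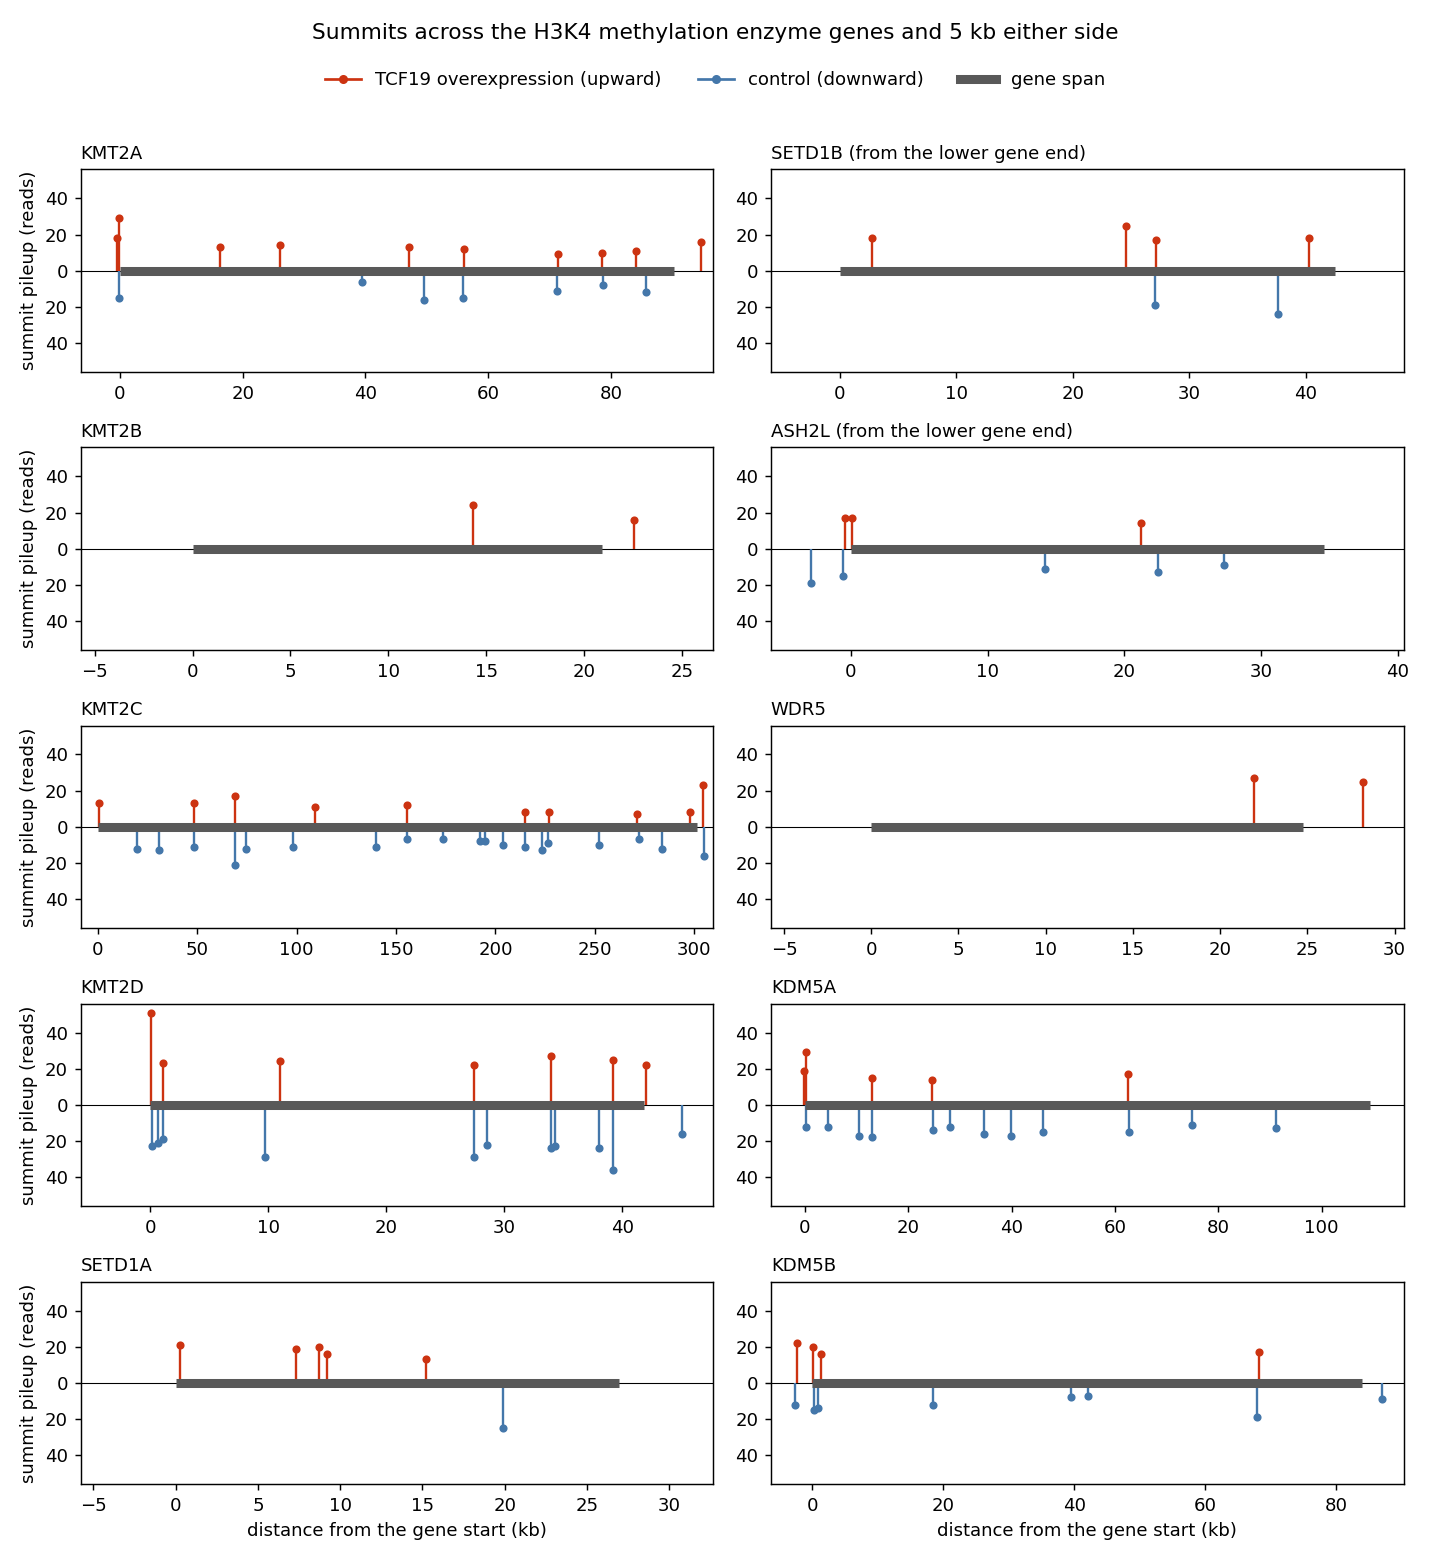
Each panel is 1 gene, with the distance from its start in kb on the x axis (from the lower gene end for SETD1B and ASH2L, from the first of 4 starts for WDR5) and the gene span as a grey bar. Stems give the pileup in reads of each summit, upward with TCF19 overexpression (red) and downward in control (blue); the tallest is the KMT2D start summit of 51 reads, and the control summits of KMT2C and KDM5A are spread along the whole gene.

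The promoters of the members differed in base composition. In the window printed for 5 of them, GC content was 90.4% at KMT2C, above 99.98% of promoters, 83.2% at KMT2B and 76.8% at KMT2A. It was 65.4% at KMT2D, 65.0% at SETD1A, 63.2% at KDM5B and 61.1% at KDM5A, near the median of 62.1% over all promoters, and ran from 50.4% to 83.6% over the 4 starts of WDR5. Among all genes with 1 start and a GC content of 70% or more, 61.1% had a start summit in control and 78.7% with overexpression, and of the members there (KMT2A, KMT2B, KMT2C) 1 and 2 did. At 60 to 70% the shares were 60.5% and 78.4%, and of KMT2D, SETD1A, KDM5A and KDM5B 3 and 4 did. For genes of lower GC content, where no member with 1 start lay, they were 48.5% and 56.3% at 50 to 60%, 27.5% and 26.1% at 40 to 50%, and 11.7% and 8.16% below 40%. These bins were chosen after the data were seen, and the part of GC content in the summits was not tested.

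The genes also differed in the local background under their summits, the read density around a peak that the caller used as reference. In control its median was 6.4 times the genome average at SETD1A (1 summit), 5.83 at KMT2D and 5.18 at SETD1B, against 1.55 at KDM5A, 1.40 at KDM5B, 1.31 at KMT2A and 1.00 at KMT2C. Over all control summits the median was 1.21 and the 95th percentile 3.71. With overexpression it was 5.47 at KMT2B, 5.37 at SETD1B, 5.36 at WDR5, 4.79 at SETD1A and 4.77 at KMT2D, where the median of all summits was 1.58 and the 95th percentile 4.35. A high background raises the pileup needed for a call and lowers the fold, which ran from 1.93 to 4.32 over the KMT2D summits in control. The highest control folds in KMT2C and KDM5A were 7.15 and 5.71.

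**Figure D5:**
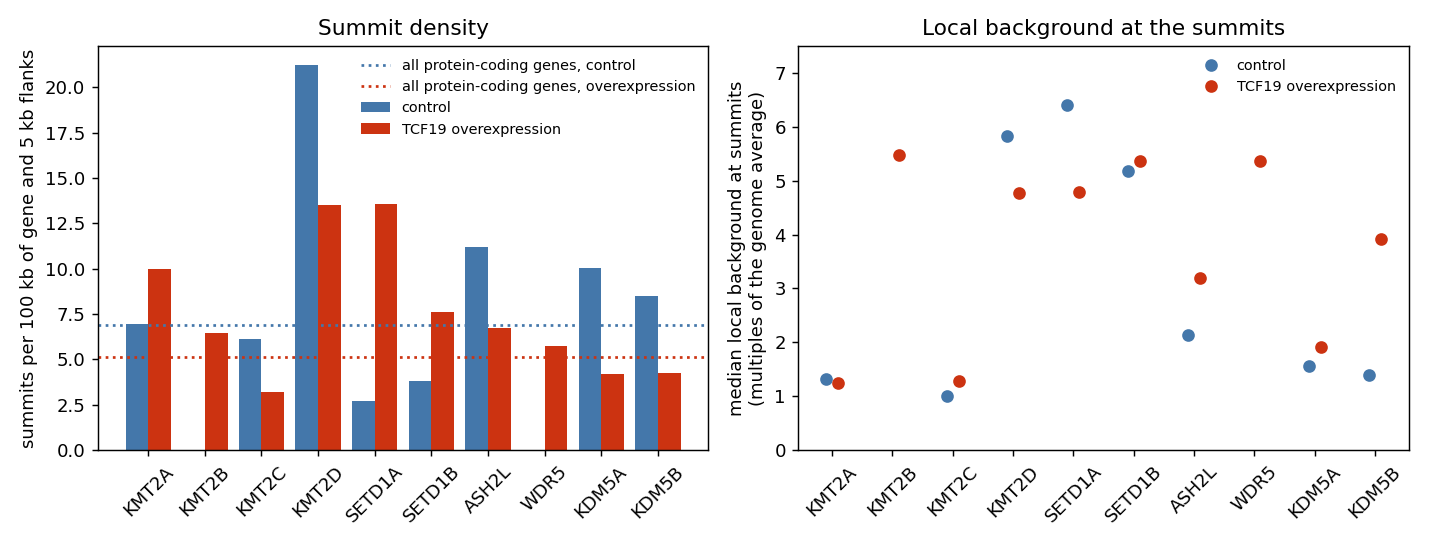
The left panel gives summits per 100 kb of gene span and flanks (bars from 0) for each of the 10 genes in control (blue) and with TCF19 overexpression (red), with dotted lines at 6.91 and 5.15 for all protein-coding genes. The right panel gives the median local background at the gene's summits in multiples of the genome average; SETD1A, SETD1B and KMT2D stand at 4.77 or above in both libraries, and KMT2B and WDR5 have no control summit.

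The share of intervals found in both libraries was lower in these genes than over the whole lists, a difference that was not tested. In control the counting interval of the member share included the share of all intervals. Of 63 control intervals 22 overlapped an overexpression interval, 34.9% (Wilson interval 24.3 to 47.2), against 43% of all control intervals. Of 47 overexpression intervals 21 overlapped a control interval, 44.7% (31.4 to 58.8), against 67.4% of all. Overlap was complete for the 4 overexpression intervals of KDM5A and absent for those of KMT2B, SETD1A and WDR5, which numbered 2, 4 and 2. The other overexpression intervals overlapped in 5 of 10 at KMT2C, 4 of 9 at KMT2A, 4 of 6 at KMT2D, 2 of 4 at KDM5B, 1 of 4 at SETD1B and 1 of 2 at ASH2L. Among intervals of at least 4-fold enrichment the share was 38.5% in control, against 52% of all, and 72.2% with overexpression, against 79.8% of all. At equal occupancy and relative background, 26 of the 26 intervals seen with overexpression alone and 36 of the 41 seen in control alone would reach the lowest pileup called in the other library. Over all such intervals 33083 of 33084 (100%) and 94.1% did, so these counts lie near the background.

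Other genes of the same pathway were counted by the same rule. Over all protein-coding genes the shares were 53.5% in control, 64.9% with overexpression, 16.1% with overexpression alone and 30.4% in neither. Of 11 further subunits of the methyltransferase complexes, 8 had a start summit with overexpression and 6 in control. RBBP5 (13 reads, 6.92 to 22.2) and DPY30 (16 reads, 9.15 to 26.0), the partners of ASH2L and WDR5 in the core, had one with overexpression alone. MEN1, CXXC1 and PAGR1 had none in either. KDM6A, a demethylase of H3K27 that sits in the KMT2C and KMT2D complexes, had the highest overexpression pileup of the list, with 16 reads (9.15 to 26.0) in control and 30 (20.2 to 42.8) with overexpression, a log2 ratio of 1.05 (0.13 to 2.03). PSIP1, a chromatin protein that tethers KMT2A, had 8 (3.45 to 15.8) and 18 reads (10.7 to 28.4). HCFC1 had 20 and 19 reads and WDR82, a subunit of the SETD1 complexes, 15 and 19, with overlapping intervals. The 3 other H3K4 demethylase genes had a start summit in both libraries, against 48.8% of all genes. They had 15 and 20 reads at KDM5C, 13 and 18 at KDM1A and 10 and 13 at KDM1B.

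Genes for proteins that bind H3K4me3, as TCF19 does, had a start summit in 12 of 15 cases with overexpression and in 6 in control. Over all genes the shares were 64.9% and 53.5%. The 6 seen with overexpression alone (16.1% of all genes) were ING5 (20 reads), BPTF (18), PHF2 (18), PYGO2 (16), SPIN1 (14) and SGF29 (11). Of the 6 seen in both, DIDO1 had 15 reads in control and 24 with overexpression, CHD1 13 and 22, ING1 15 and 18, TAF3 16 and 16, PHF8 16 and 15, and ING3 9 and 12. The counting intervals of each overlapped between the libraries. The median log2 ratio of genes with both values was 0.61 over the further subunits (6 genes), 0.56 over the demethylases (3 genes) and 0.49 over the readers (6 genes), all between the 0.41 of all genes and the 1.10 of the members.

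Genes of PRC2 and NuRD gave values in the same range. The start counts stand beside shares over all genes of 64.9% with overexpression, 53.5% in control and 16.1% with overexpression alone. PRC2, the Polycomb complex that methylates H3K27, had start summits at 10 of 11 genes with overexpression and 9 in control, with a median log2 ratio of 0.73 over 9 genes. Its highest overexpression pileups were 27 reads at AEBP2 (20 in control), 24 at RBBP4 (13) and 22 at PHF19 (13). SUZ12 was the PRC2 gene seen with overexpression alone (19 reads). The NuRD complex, a remodeller with deacetylase activity, had 10 of 13 against 6, with a median log2 ratio of 0.47 over 6 genes. CHD4 had 23 reads in control and 26 with overexpression, and HDAC2 had 12 (6.2 to 21.0) and 25 (16.2 to 36.9). HDAC1 (17 reads), MBD2 (14), GATAD2A (25) and GATAD2B (17) were seen with overexpression alone. All these counts rest on 1 library per group, and the lists share RBBP4 and RBBP7.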

How the data were processed

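Anti-TCF19 ChIP-seq libraries of 2 groups, 1 each, were used. The submitters' processing notes name BWA 0.7.12, MACS2 2.1.0 and the hg38 build. Call settings and the handling of duplicates or input were not given in the sources used here. Folds are thus not read as corrected for input. Per summit the authors deposited a score, a fold (ratio) over local background, and a −log10 p-value and q-value; the q-value starts at −log10 of 1.301.

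The pileup was solved as the whole number that gives the deposited fold, (pileup + 1) / (background + 1), and the deposited −log10 p under a Poisson tail, with a misfit of at most 0.001. It was recovered at 99.997% of control and 99.996% of overexpression summits, and 5 and 4 were not. The genome average is the lowest background. The recovery was tested on simulated data. Summits on contigs other than chromosomes 1 to 22 and X, 792 and 643, were left out.

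A gene start came from the RefSeq promoter table for 15811 genes, and either gene end was used for 4159. Exons were not separated. Overlap needed 1 bp. Poisson, Clopper-Pearson (for ratios) and Wilson intervals are at 95% and cover counting error only, since summits are picked maxima and reads may be PCR copies. Python 3.11.15 and scipy 1.17.1 were used. All 10 members are named; of other lists, genes with a start summit in 1 library alone and the 3 of highest overexpression pileup, plus some named after their values were seen. The members and lists were chosen with earlier results of these data known. Other windows, thresholds and scalings were tried.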

Additional observations from a re-analysis of the deposited data

How the results depend on the processing

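No paired analysis was possible because each group had 1 library. Restricted to summits of at least 4-fold enrichment, members with a start summit numbered 1 in control and 3 with overexpression, and summits in their spans 26 and 19. Start counts there were, in control and with overexpression, 2 and 5 for the further complex subunits, 2 and 6 for the H3K4me3 readers, 1 and 3 for the other demethylases, 2 and 8 for PRC2 and 0 and 7 for NuRD. At that cutoff the shares over all protein-coding genes were 23% in control and 40.5% with overexpression. With equally many top-fold summits taken from both lists, 1 member had a start summit in control and 7 with overexpression. Summits in member spans then numbered 28 and 52, the opposite direction from 65 and 52. That setting removed control summits only, so the overexpression counts could not fall. Counting as shared only intervals with summits within 100 bp gave 22.2% of control and 29.8% of overexpression intervals, and overexpression intervals of at least 4-fold gave 72.2%. The causes were not tested. Of the recomputed values for whole lists, 36 moved less, counts by at most 1.5 times. The median log2 start ratio of the members ran from 0.73 to 1.26. Some of these 36 values are given above. They also include the counts of 4 and 6 members among genes with a start in the promoter table, an alternative chosen after seeing the data. No start ratio of a single member changed sign. Low pileups limit the comparisons: the differences of 1.48-fold at KDM5B and 1.26-fold at ASH2L were within counting error.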
